A study of Mus musculus with 10 samples.

Results

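CC chemokines are small secreted proteins that bind G-protein-coupled receptors on leukocytes, microglia and other cells and direct their movement. *Ccl3*, *Ccl4* and *Ccl5* encode inflammatory chemokines that attract monocytes and T cells, and the products of *Ccl3* and *Ccl5* bind CCR1. *Ccl6* and *Ccl9* are rodent genes whose products bind CCR1, and *Ccl24* encodes an eotaxin, a ligand of the eosinophil receptor CCR3. In the brain, activated microglia and macrophages are well-known sources of CCL3 and CCL4. These 6 genes were chosen by symbol from the 15900 genes of the hippocampal expression table, and all 6 were among the 15851 genes tested.

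The question was how gene activity in the hippocampus changed after status epilepticus (SE), a prolonged seizure, and what levetiracetam (LEV), an antiepileptic drug, did to that change. Whole hippocampi of male ICR mice aged 9 to 10 weeks were measured by cap analysis of gene expression (CAGE), which counts sequence tags from the capped 5′ ends of RNA, so that values do not scale with transcript length. Each of 5 groups held 2 mice. The authors gave control mice saline in place of pilocarpine (PILO), a muscarinic agonist, and call pre-SE mice both control and naive. All SE mice received methyl scopolamine and then PILO, and their seizures were ended with diazepam. They were taken 6 h or 2 days later without further drug (SE 6 h, SE 2 days) or with oral LEV, given 1 time before 6 h and 5 times before 2 days (SE + LEV 6 h, SE + LEV 2 days). Time after SE and number of LEV doses therefore cannot be told apart in the LEV groups, and PILO and SE cannot be told apart from the handling shared by all SE mice.

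Depth inferred from the spacing of low values was 10540698 to 51710968 tags per library, so that the limit of detection used here, 3 tags, amounted to 0.058 to 0.285 CPM (tags scaled to a common library total). All 6 hippocampal markers were found in every library, with summed levels of 460.45 to 692.45 CPM. The 8 microglia and macrophage markers summed to 168.37 to 181.16 CPM in pre-SE, 94.08 to 115.92 CPM in SE 6 h, 112.42 to 145.24 CPM in SE + LEV 6 h, 401.13 to 416.29 CPM in SE 2 days and 421.93 to 501.60 CPM in SE + LEV 2 days. The members of this list moved apart at 6 h, where *Cd68* was called higher than in pre-SE (logFC 1.58, adjusted p = 0.042) and *P2ry12* (-2.51, adjusted p = 0.012) and *Tmem119* (-2.50, adjusted p = 0.0048) lower by limma. In whole tissue, more cells of a type and more RNA per cell cannot be told apart. The 4 choroid plexus markers analysed differed most between libraries, from 8.72 to 4025 CPM, which touches *Ccl6* and *Ccl9* as given with their values.

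In the mm9 build with GENCODE annotation, 5 of the genes lie together on chromosome 11. *Ccl5* spans 83339280 to 83344020, *Ccl9* 83386421 to 83392138, *Ccl6* 83401384 to 83406589 and *Ccl3* 83461346 to 83462857, all on the minus strand, and *Ccl4* spans 83476086 to 83478185 on the plus strand. The annotated starts of *Ccl9* and *Ccl6* are 14451 bases apart, those of *Ccl3* and *Ccl4* 13229 bases, and those of *Ccl5* and *Ccl4*, the outermost, 132066 bases. *Ccl24* lies apart, on chromosome 5 from 136045807 to 136048913. The longest stretch shared between transcripts of any pair was 25 nucleotides, in *Ccl6* and *Ccl9*. *Ccl6* overlaps E230016K23Rik on the opposite strand, and how tags were assigned to genes by strand is not given in the sources used here.

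**Figure D1:**
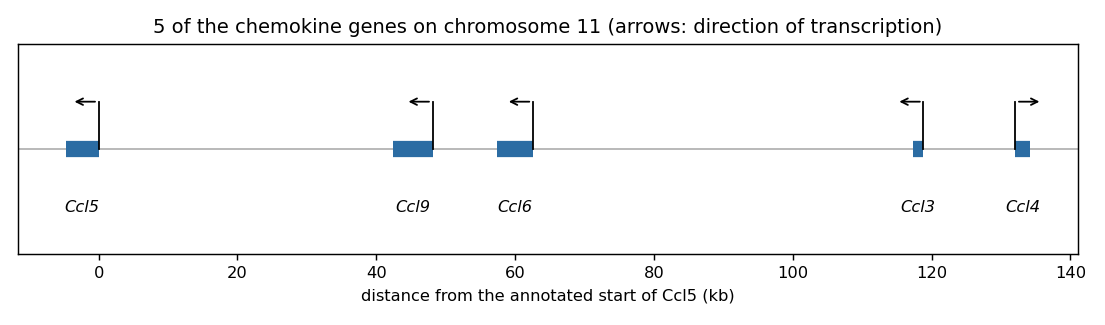
Map of the 5 genes on chromosome 11, with distance from the annotated start of Ccl5 in kb on the horizontal axis. Blocks are the annotated genes and arrows show the direction of transcription. Ccl9 and Ccl6 form a pair read in the same direction, and Ccl3 and Ccl4 a pair read away from each other.

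The promoters of *Ccl9*, *Ccl6* and *Ccl3* are shown because only these were available among the 6 genes. The sequences, from RefSeq on GRCm38.p6, run from 250 bases before to 50 bases after the start on the coding strand, and 3 of the 6 genes matched this promoter table (*Ccl4*, *Ccl5* and *Ccl24* did not). Capitals mark matches to any of 7 motifs searched on both strands, which were the TATA box (TATAAA), the AP-1 motif (TGANTCA), the CRE (TGACGTCA), the NF-kappaB consensus, an interferon-stimulated element, the C/EBP motif (TTGCNNAA) and the PU.1 core (GAGGAA).
Ccl9, chr11:83578587-83578886, minus strand: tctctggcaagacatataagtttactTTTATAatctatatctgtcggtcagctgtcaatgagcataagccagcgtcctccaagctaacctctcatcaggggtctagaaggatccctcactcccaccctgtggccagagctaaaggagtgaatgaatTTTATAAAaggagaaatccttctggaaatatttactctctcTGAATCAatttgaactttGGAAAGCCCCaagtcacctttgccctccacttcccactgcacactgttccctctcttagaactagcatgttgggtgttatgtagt
Ccl6, chr11:83593038-83593337, minus strand: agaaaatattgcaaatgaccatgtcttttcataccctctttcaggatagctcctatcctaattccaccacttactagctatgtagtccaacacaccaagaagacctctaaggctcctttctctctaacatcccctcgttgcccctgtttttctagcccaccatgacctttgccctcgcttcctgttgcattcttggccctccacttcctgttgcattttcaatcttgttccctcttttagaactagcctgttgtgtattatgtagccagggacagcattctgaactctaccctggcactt
Ccl3, chr11:83649329-83649628, minus strand: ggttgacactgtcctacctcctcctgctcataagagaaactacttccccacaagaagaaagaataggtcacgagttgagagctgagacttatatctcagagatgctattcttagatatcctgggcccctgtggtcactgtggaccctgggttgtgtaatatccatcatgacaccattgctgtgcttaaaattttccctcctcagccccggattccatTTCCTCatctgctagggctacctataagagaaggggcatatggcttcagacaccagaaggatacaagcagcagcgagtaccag

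In the *Ccl9* window, TATAAA matched with first bases at -224, -94 and -92 (the last 2 overlap on opposite strands), TGANTCA at -53 and the NF-kappaB consensus at -35. In the *Ccl3* window the only match was GAGGAA at -33, on the minus strand, and in the *Ccl6* window none of the 7 motifs matched. Among 32851 promoters of the same length, TATAAA occurred in 13.62%, TGANTCA in 7.81%, the NF-kappaB consensus in 4.51% and GAGGAA in 28.28%. The windows of *Ccl9* and *Ccl6* shared a run of 13 bases, gccctccacttcc, starting at -14 and -55. After it, both windows held a similar stretch that opens with tgttccctct and ends with ttatgtag. Aligned over the whole windows, *Ccl9* had 170 identical bases with *Ccl6* and 153 with *Ccl3*. Identity was 47.1% and 44.7% of the alignment length, which includes gaps, so these shares do not describe single stretches. A match is a description of these letters and not of a bound site, and since the values are per gene, the windows sit at annotated starts and not at measured ones.

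*Ccl3* and *Ccl4*, neighbours that encode closely related inflammatory chemokines, were low before SE and were raised at both times in the mice without LEV. *Ccl3* was at 0.28 and 0.02 CPM in the pre-SE mice, 35.44 and 14.73 CPM in SE 6 h, and 13.82 and 5.21 CPM in SE 2 days. *Ccl4* was at 0.41 and 0.19 CPM in pre-SE, 24.92 and 18.71 CPM in SE 6 h, and 23.07 and 11.51 CPM in SE 2 days. Every SE mouse was above both pre-SE mice for both genes. At 6 h the log2 fold change (logFC) on the log2(CPM + 0.1) scale was 6.75 (standard error 0.80, adjusted p = 0.0028) for *Ccl3* and 5.82 (standard error 0.63, adjusted p = 0.0023) for *Ccl4*, by limma with Benjamini-Hochberg adjustment over all 15851 genes, which gave every adjusted p below. At 2 days it was 5.33 (adjusted p = 0.0044) for *Ccl3* and 5.41 (adjusted p = 0.0014) for *Ccl4*. These 4 calls stood under every alternative and without any 1 mouse, whereas the pre-SE level of *Ccl3* rested on 8 and 1 tags, so that the size of its fold depends on the pseudocount.

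*Ccl9* rose at both times from a low basal level, and *Ccl6*, its neighbour, had the highest mean basal level of the 6 genes. *Ccl9* was at 1.17 and 3.83 CPM in pre-SE, 13.34 and 15.83 CPM in SE 6 h, and 18.32 and 13.28 CPM in SE 2 days. The logFC was 2.71 (standard error 0.53, adjusted p = 0.023) at 6 h and 2.81 (standard error 0.53, adjusted p = 0.012) at 2 days. *Ccl6* was at 1.86 and 3.85 CPM in pre-SE, 7.31 and 11.1 CPM in SE 6 h, and 29.26 and 6.73 CPM in SE 2 days. All 4 SE mice without LEV lay above both pre-SE mice, but the logFC of 1.71 at 6 h (adjusted p = 0.18) and of 2.35 at 2 days (adjusted p = 0.051) did not pass the threshold of 0.05. Within each of the 5 groups the mouse with the higher choroid plexus sum also had the higher *Ccl6* and *Ccl9*. The same order was found in 4 of 5 groups for *Ccl24* and in 3 of 5 for each of *Ccl3*, *Ccl4* and *Ccl5*. The part of this in the results was not tested.

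*Ccl24* and *Ccl5* were low throughout and moved at different times. *Ccl24*, the eotaxin gene, was at 0.07 and 0.35 CPM in pre-SE and at 2.18 and 2.6 CPM in SE 6 h, with a logFC of 3.17 (standard error 0.66, adjusted p = 0.032). In SE 2 days it was back to 0.17 and 0 CPM, the latter allowing up to 0.143 CPM (3 tags), and its logFC against pre-SE was -0.75 (adjusted p = 0.60). *Ccl5*, encoding a chemoattractant of T cells and monocytes, was at 0.1 and 0 CPM in pre-SE, 0.29 and 0.07 CPM in SE 6 h, and 1.31 and 0.81 CPM in SE 2 days. Its groups overlapped at 6 h (logFC 0.86, adjusted p = 0.47), and at 2 days its logFC was 3.002 (standard error 0.59, adjusted p = 0.015). Since the pre-SE mice held only 3 tags of *Ccl5* in all, against 48 in SE 2 days, the ratio of pooled tags per library size was 29 with an exact 95% interval for counting error alone of 9.35 to 146.

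**Figure D2:**
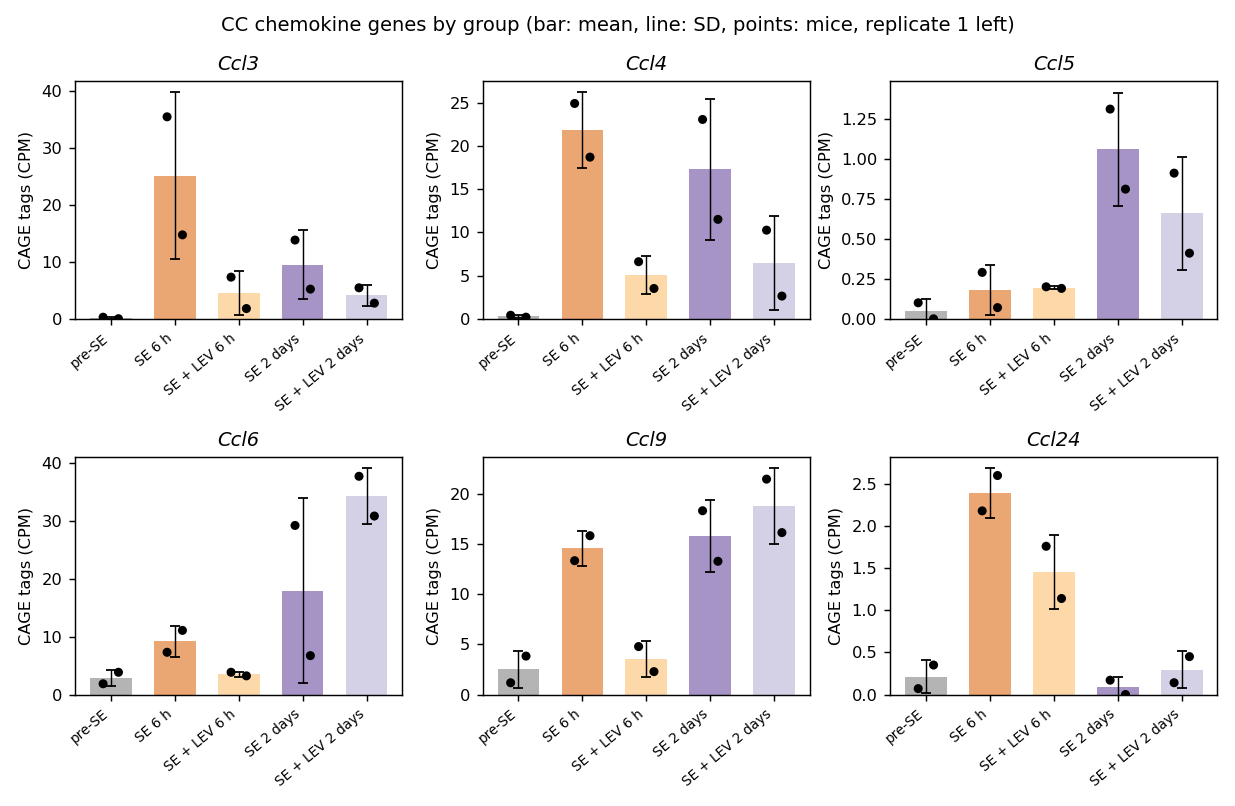
CPM of the 6 genes in each mouse (points, replicate 1 on the left), with group means (bars) and SD (lines) on linear axes that differ between genes. Ccl3 and Ccl4 were highest in SE 6 h, Ccl24 stood above 1 CPM only in the 6 h groups, Ccl5 was highest in SE 2 days, and Ccl6 and Ccl9 were highest by mean in SE + LEV 2 days.

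In all, 4 of the 6 genes were called higher at 6 h (*Ccl3*, *Ccl4*, *Ccl9* and *Ccl24*), where 2.76% of all genes tested were called higher, and 4 at 2 days (*Ccl3*, *Ccl4*, *Ccl5* and *Ccl9*), where 5.07% were. Both SE mice lay above both pre-SE mice for 5 of 6 genes at 6 h (all but *Ccl5*, background 18.6%) and for 5 of 6 at 2 days (all but *Ccl24*, background 26.3%). The median logFC of the 6 was 2.94 at 6 h and 2.91 at 2 days, against -0.13 and -0.03 over all genes. Of 5 other CC chemokine genes on chromosome 11, *Ccl2*, *Ccl7*, *Ccl8*, *Ccl11* and *Ccl12*, 3 rose past the threshold at 6 h and 4 at 2 days, against the same pre-SE mice. The *Ccl9* call at 6 h was lost without pre-SE replicate 1 (adjusted p = 0.14), SE 6 h replicate 1 (0.09) or SE 6 h replicate 2 (0.17), and that of *Ccl24* without pre-SE replicate 1 (0.22), pre-SE replicate 2 (0.05, rounded), SE 6 h replicate 1 (0.11) or SE 6 h replicate 2 (0.2). The *Ccl24* call was also lost with a pseudocount of 0.01 (0.16) and the replicate block (0.053), and the *Ccl9* call with only the groups compared (0.063). At 2 days, the *Ccl5* call was lost without pre-SE replicate 2 (0.11), SE 2 days replicate 1 (0.08) or SE 2 days replicate 2 (0.075), and that of *Ccl9* without pre-SE replicate 1 (0.085), SE 2 days replicate 1 (0.067) or SE 2 days replicate 2 (0.073), where the lone mouse left in a group was assumed to vary like the others.

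Between 6 h and 2 days in the SE mice without LEV, *Ccl24* was the only 1 of the 6 whose level differed past the threshold. It fell by 3.92 on the log2 scale (standard error 0.66, adjusted p = 0.010), among 1.11% of all genes called lower and 3.14% called higher. *Ccl5* was higher in both mice at 2 days, with a logFC of 2.14 (adjusted p = 0.075), and *Ccl3* was lower in both, with -1.42 (adjusted p = 0.35). The intervals of the difference ran from -1.80 to 0.995 for *Ccl4*, from -0.70 to 1.98 for *Ccl6* and from -1.07 to 1.27 for *Ccl9*, whose groups overlapped. The *Ccl24* call was lost without SE 6 h replicate 1 (adjusted p = 0.064), SE 6 h replicate 2 (0.078) or SE 2 days replicate 2 (0.087). *Ccl11*, which encodes another eotaxin, was at 0.03 and 0.04 CPM in pre-SE, 1.73 and 2.12 CPM in SE 6 h and 0.34 and 0.96 CPM in SE 2 days, and its logFC of -1.56 between the times did not pass (adjusted p = 0.20). The 3 neutrophil markers analysed, of 8 in the list, summed to 0.59 to 1.62 CPM in pre-SE. Their sum was 6.23 to 6.70 CPM in SE 6 h and 1.18 to 4.87 CPM in SE 2 days. *Mpo* was at 3.4 and 1.16 CPM in SE 6 h and 0.08 and 0.24 CPM in SE 2 days. *S100a8* was at 1.44 and 2.4 CPM, then 0.55 and 2.39 CPM, and *S100a9* at 1.86 and 2.67 CPM, then 0.55 and 2.24 CPM. The perivascular macrophage markers analysed summed to 9.30 to 14.32 CPM in SE 6 h and 12.32 to 17.50 CPM in SE 2 days. The part of either list in the *Ccl24* values was not tested. No marker of eosinophils (4 in the list) or of T and NK cells (9 in the list) was among the genes analysed here.

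The order of the group means differed from gene to gene. For *Ccl3* it ran from SE 6 h (25.1 CPM ± 14.6, SD, n = 2) through SE 2 days (9.52 ± 6.09), SE + LEV 6 h (4.56 ± 3.90) and SE + LEV 2 days (4.10 ± 1.90) to pre-SE (0.15 ± 0.18), and the 3 middle groups did not differ beyond the ranges of their neighbours. For *Ccl4*, SE 6 h (21.8 ± 4.39) and SE 2 days (17.3 ± 8.17) overlapped, as did the SE + LEV groups below them (6.45 ± 5.40 at 2 days and 5.06 ± 2.19 at 6 h), and pre-SE stood last (0.30 ± 0.16). *Ccl6* and *Ccl9* both had the order SE + LEV 2 days, SE 2 days, SE 6 h, SE + LEV 6 h and pre-SE, with a gap between the ranges of SE 6 h and SE + LEV 6 h in each. *Ccl5* was above 0.4 CPM only in the 2-day groups, and *Ccl24* above 1 CPM only in the 6 h groups.

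In the mice given LEV, 5 of the 6 genes were lower at 6 h than in either SE 6 h mouse, although no difference passed the threshold after adjustment. *Ccl3* was at 7.31 and 1.8 CPM in SE + LEV 6 h, which is 29.1% and 7.2% of the SE 6 h mean. *Ccl4* was at 6.61 and 3.51 CPM (30.3% and 16.1%). *Ccl9* was at 4.78 and 2.28 CPM (32.8% and 15.6%). These 3 genes were thus below 33% of the SE mean in each LEV mouse, while each SE mouse was at 58.7% or more of it. *Ccl6* was at 3.85 and 3.23 CPM (41.8% and 35.1%), within the pre-SE range, and *Ccl24* was at 1.76 and 1.14 CPM (73.6% and 47.7%). *Ccl5*, at 0.2 and 0.19 CPM, was between the 2 SE 6 h mice.

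The logFC of SE + LEV 6 h against SE 6 h was -2.61 for *Ccl3* (95% interval -4.39 to -0.84, adjusted p = 0.71), -2.14 for *Ccl4* (-3.54 to -0.74, adjusted p = 0.66), -2.10 for *Ccl9* (-3.27 to -0.93, adjusted p = 0.45), -1.33 for *Ccl6* (-2.67 to 0.01, adjusted p = 1) and -0.71 for *Ccl24* (-2.17 to 0.76, adjusted p = 1). The intervals and the unadjusted p come from the same limma fit, which called 0.0126% of all genes lower, and at unadjusted p under 0.05 the counts were 3 of 6 (*Ccl3*, *Ccl4* and *Ccl9*) against 3.42% of all genes. Both LEV mice were below both SE mice for 13.4% of all genes. The median logFC was -1.72 over the 6 and 0.04 over all genes. Of the 5 other CC chemokine genes, 4 also had estimates below 0, as did 7007 of all 15851 genes. Only 1 of the 5, *Ccl11*, was lower at unadjusted p under 0.05 by limma. With 2 mice against 2, an exact two-sided permutation test cannot give a p under 0.333.

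**Figure D3:**
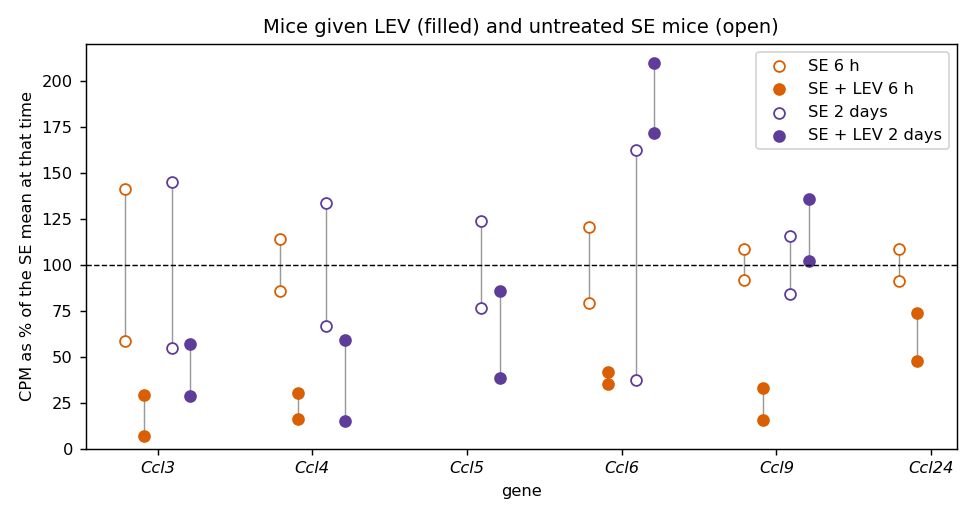
CPM of each mouse as a percentage of the mean of the SE mice without LEV at the same time (dashed line, 100%), for SE mice (open) and SE + LEV mice (filled). Ccl5 at 6 h and Ccl24 at 2 days are left out because the SE level is near the limit of detection. Filled points lie below the open points for Ccl3, Ccl4, Ccl6, Ccl9 and Ccl24 at 6 h, and above them for Ccl6 at 2 days.

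At 2 days the 6 genes no longer lay on 1 side of the untreated SE mice. *Ccl4* was at 10.26 and 2.63 CPM in SE + LEV 2 days (59.3% and 15.2% of the SE 2 days mean), below both SE mice, with a logFC of -1.63 (95% interval -3.02 to -0.23, unadjusted p = 0.027, adjusted p = 1 by limma). *Ccl3* was at 5.44 and 2.75 CPM and *Ccl5* at 0.91 and 0.41 CPM, and each overlapped the SE mice (logFC -1.11 and -0.66). *Ccl6* was at 37.77 and 30.89 CPM, above the SE 2 days mice, with a logFC of 1.28 (-0.07 to 2.61, unadjusted p = 0.06, adjusted p = 1 by limma). *Ccl9* was at 21.47 and 16.14 CPM and overlapped the SE mice (logFC 0.25, -0.92 to 1.43). *Ccl24* was at 0.14 and 0.45 CPM, with both groups near the limit of detection.

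None of the 6 genes was called at 2 days, where limma called 0% of all genes lower. At unadjusted p under 0.05, 1 of 6 was lower (*Ccl4*) against 1.39% of all genes. Both LEV mice were below both SE mice for 1 of 6 genes against 12.2% of all, and above for 1 of 6 (*Ccl6*) against 15.2%. The low *Ccl6* of SE 2 days replicate 2 (6.73 CPM) set the size of that difference, since the other SE mouse, at 29.26 CPM, was close to the LEV mouse at 30.89 CPM. The choroid plexus sum was 67.85 and 23.02 CPM in the SE 2 days mice and 1507 and 26.99 CPM in the SE + LEV 2 days mice, so that the LEV mouse with 30.89 CPM of *Ccl6* had a sum close to that of the SE mouse with 6.73 CPM.

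The difference between the LEV effects at 2 days and at 6 h was 2.60 for *Ccl6* (standard error 0.85, unadjusted p = 0.012, adjusted p = 1) and 2.36 for *Ccl9* (standard error 0.74, unadjusted p = 0.0099, adjusted p = 1) in the limma interaction test, in which 0% of all genes were called higher. At unadjusted p under 0.05 the count was 2 of 6 against 1.58% of all genes. For *Ccl3*, *Ccl4*, *Ccl5* and *Ccl24* the intervals of this difference included 0, at -1.01 to 4.01, -1.46 to 2.49, -2.70 to 0.99 and -0.22 to 3.93.

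Compared with pre-SE, the SE + LEV 6 h mice had 1 of 6 genes called higher, *Ccl4* (logFC 3.68, standard error 0.63, adjusted p = 0.049), where 0.315% of all genes were. *Ccl3* (4.14, adjusted p = 0.075) and *Ccl24* (2.46, adjusted p = 0.21) were above both pre-SE mice without passing, and *Ccl6* (0.38) and *Ccl9* (0.61) overlapped the pre-SE mice. The *Ccl4* call was lost without pre-SE replicate 1 (adjusted p = 0.12), pre-SE replicate 2 (0.27), SE + LEV 6 h replicate 1 (0.26) or SE + LEV 6 h replicate 2 (0.13). In SE + LEV 2 days 4 of 6 were called higher than in pre-SE, *Ccl3* (4.22, adjusted p = 0.019), *Ccl4* (3.79, adjusted p = 0.010), *Ccl6* (3.62, adjusted p = 0.010) and *Ccl9* (3.07, adjusted p = 0.012), against 2.83% of all genes. All 4 of these calls were lost without SE + LEV 2 days replicate 1 (adjusted p = 0.16, 0.074, 0.084 and 0.1), those of *Ccl6* and *Ccl9* without pre-SE replicate 1 (0.089 and 0.078) and those of *Ccl3* and *Ccl4* without pre-SE replicate 2 (0.13 and 0.077). *Ccl5* (2.34, adjusted p = 0.073) lay above both pre-SE mice, and *Ccl24* (0.39, adjusted p = 0.94) overlapped them.

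**Figure D4:**
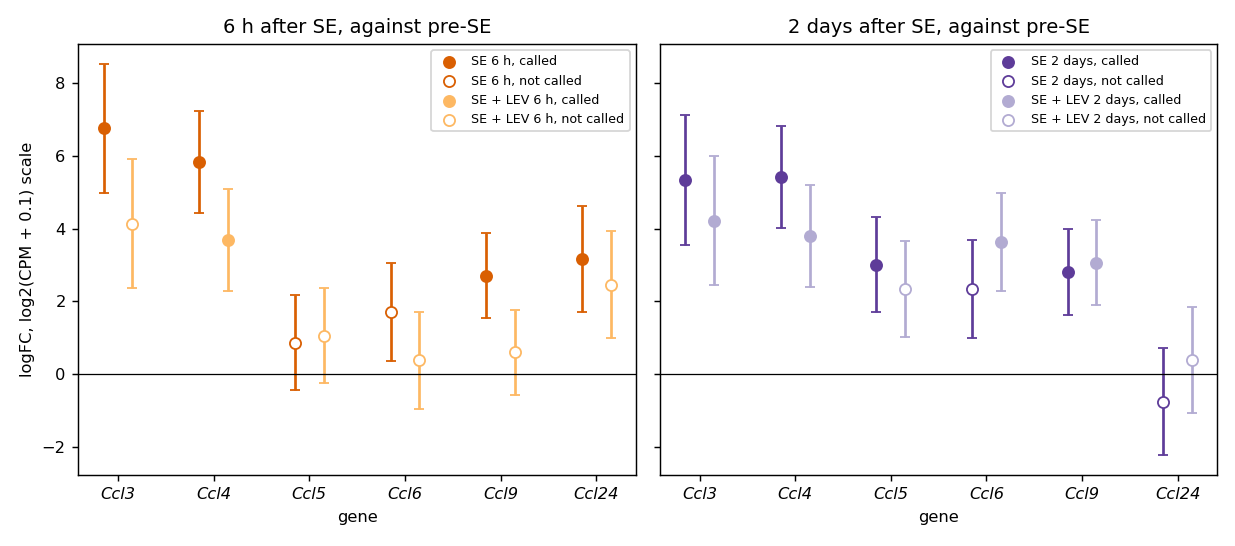
logFC against the pre-SE mice on the log2(CPM + 0.1) scale, at 6 h (left) and 2 days (right), for SE mice without LEV (darker) and with LEV (lighter). Lines are 95% confidence intervals from limma and filled points were called at an adjusted p of at most 0.05. At 6 h the LEV estimates of Ccl6 and Ccl9 lie near 0, and at 2 days they lie above those of the untreated SE mice.

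From 6 h to 2 days under LEV, *Ccl6* rose by 3.24 (standard error 0.60, adjusted p = 0.023) and *Ccl9* by 2.46 (standard error 0.53, adjusted p = 0.044) on the log2 scale, 2 of 6 genes where 2.06% of all genes were called higher and 0.0757% lower. *Ccl24* was lower in both 2-day mice (logFC -2.06, adjusted p = 0.20). For *Ccl3* and *Ccl4* the estimates were 0.08 (95% interval -1.69 to 1.86) and 0.11 (-1.29 to 1.51). The *Ccl9* call was lost without any 1 of the 4 mice (adjusted p = 0.087 and 0.22 without SE + LEV 6 h replicates 1 and 2, 0.32 and 0.065 without SE + LEV 2 days replicates 1 and 2), and that of *Ccl6* without SE + LEV 6 h replicate 1 (0.13), SE + LEV 6 h replicate 2 (0.14) or SE + LEV 2 days replicate 1 (0.17). The microglia and macrophage sum was also higher at 2 days in the LEV mice, and its part in these changes was not tested.

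Since each capped RNA gives tags irrespective of length, the make-up of the summed chemokine signal can be given per mouse. The 6 genes together gave 3.89 and 8.24 CPM in pre-SE, 83.48 and 63.04 CPM in SE 6 h, 24.51 and 12.15 CPM in SE + LEV 6 h, 85.95 and 37.54 CPM in SE 2 days, and 75.99 and 53.27 CPM in SE + LEV 2 days. *Ccl3* and *Ccl4* made up 42.5% and 29.9% of the sum in SE 6 h replicate 1 and 23.4% and 29.7% in replicate 2. In the SE + LEV 2 days mice they made up 7.2% and 13.5% (replicate 1) and 5.2% and 4.9% (replicate 2), and *Ccl6* took 49.7% and 58.0%. The share of *Ccl6* was similar in pre-SE, at 47.8% and 46.7%, and was 34.0% and 17.9% in SE 2 days. The *Ccl6* level per *Ccl9* level was 1.59 and 1.01 in pre-SE, 0.55 and 0.70 in SE 6 h, 1.60 and 0.51 in SE 2 days, and 1.76 and 1.91 in SE + LEV 2 days. The 5 other CC chemokine genes together gave 180.25 and 70.08 CPM in SE 2 days and 93.55 and 23.57 CPM in SE + LEV 2 days.

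Across the 10 libraries, which share their groups, depth and scaling, the level of *Ccl3* followed that of *Ccl4* with a Pearson r of 0.97 on the log scale, and that of *Ccl6* followed *Ccl9* with 0.88. *Ccl24* had r of 0.40 with *Ccl3* and of -0.45 with *Ccl5*. Among the other genes with a mean of at least 1 CPM, the most like *Ccl3* after *Ccl4* were *Cd14*, the lipopolysaccharide co-receptor (0.972), and *Tnf*, an inflammatory cytokine (0.949). Those most like *Ccl4* were *Hmox1*, encoding haem oxygenase (0.990), and *Cd14* (0.986). For *Ccl5* they were *Clec5a* (0.962), *Pou2f2* (0.954) and *Tmem106a* (0.951), for *Ccl6* they were *Irf5* (0.915), *Il1rl2* (0.912) and *Zfp521* (0.906), for *Ccl9* they were *Csf1* (0.931), *Csf2ra* (0.921) and *Plek* (0.920), and for *Ccl24* they were *Phldb2* (0.955), *Zhx2* (0.953) and *Slc7a11* (0.949). These are descriptions over 10 points, without a test.

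On the receptor side, *Ccr1*, encoding a receptor for CCL3, CCL5, CCL6 and CCL9, reached at most 0.17 CPM in any mouse, and *Ccrl2*, encoding a non-signalling relative, at most 0.72 CPM. *Ccr2* and *Ccr3* and the scavenger receptor gene *Ackr2* were not analysed here. The 2 atypical receptor genes analysed, listed as *Darc* and *Cxcr7*, were not called in any comparison.

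Of 19 genes for transducers that act below these receptors (G proteins, arrestins, kinases, phospholipases, Rac activators and RGS proteins), 1 was called higher at 6 h (background 2.76%) and 5 at 2 days (background 5.07%) in the SE mice, and none was called lower in any comparison by limma. The 1 of 19 at 6 h is near the share of all genes. At 6 h this was *Elmo1*, encoding a partner of DOCK proteins in Rac activation, with 73.23 to 90.7 CPM in pre-SE and 183.27 to 200.97 CPM in SE 6 h (logFC 1.24, adjusted p = 0.042). At 2 days the 3 with the highest logFC were *Rgs1* (4.56, adjusted p = 0.013) and *Rgs2* (2.46, adjusted p = 0.017), which encode terminators of G-protein signals, and *Rac2* (2.84, adjusted p = 0.0014), encoding a GTPase of blood-derived cells and microglia. *Rac2* and *Dock2*, encoding its leukocyte activator, were also higher at 2 days than at 6 h (2.34 and 2.17), and higher in SE + LEV 2 days than in pre-SE (2.88 and 2.18) and SE + LEV 6 h (2.53 and 2.15). None of the 19 was called in SE + LEV 6 h against pre-SE or in either comparison of LEV with SE, by limma. At unadjusted p under 0.05, 3 were lower (background 3.42%) and 1 higher at 6 h, and 2 were lower (background 1.39%) and none higher at 2 days. Of the microglia and macrophage list, *P2ry12* alone was lower in SE 2 days than in pre-SE (18.06 and 16.91 against 41.45 and 26.88 CPM). It was at 20.37 and 52.74 CPM in SE + LEV 2 days. The summed microglia and macrophage markers were higher with *Rac2* and *Dock2* at 2 days. So were the 3 monocyte markers analysed, of 7 in the list, which summed to 8.73 to 15.44 CPM in pre-SE, 19.98 to 20.49 CPM in SE 6 h, 11.36 to 17.36 CPM in SE + LEV 6 h, 26.74 to 36.22 CPM in SE 2 days and 22.72 to 29.25 CPM in SE + LEV 2 days. Among them *Plac8* was at 0.1 CPM in both pre-SE mice, 5.05 and 2.24 CPM in SE 2 days (logFC 4.12, adjusted p = 0.0045 by limma) and 3.43 and 2.96 CPM in SE + LEV 2 days (logFC 4.04, adjusted p = 0.0076 by limma). *Ly6c1* made up most of the monocyte sum, at 15.31 and 8.59 CPM in pre-SE and 30.87 and 23.21 CPM in SE 2 days. In SE + LEV 2 days *Ly6c1* was at 15.84 and 26.25 CPM, and *Chi3l3*, the remaining marker, at 3.45 and 0.04 CPM. The part of either list in the changes of *Rac2*, *Dock2* and *Ccl5* was not tested.

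**Figure D5:**
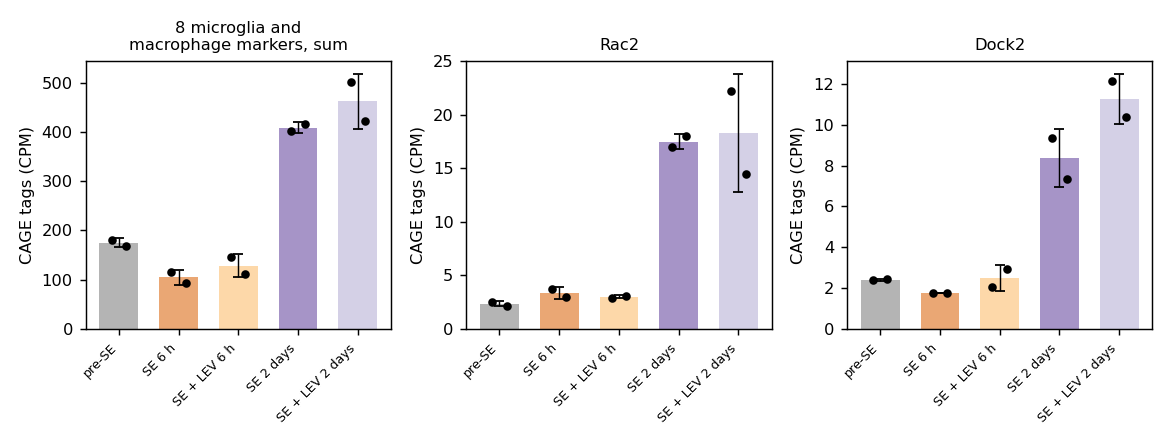
Summed CPM of 8 microglia and macrophage markers, and CPM of Rac2 and Dock2, in each mouse (points), with group means (bars) and SD (lines). The marker sum, Rac2 and Dock2 were high in both 2-day groups, with or without LEV.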

How the data were processed

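Hippocampal CAGE libraries of 10 mice were analysed, 2 in each of 5 groups. The authors mapped tags to mm9 with BWA 0.7.17 and HISAT2 2.0.5, used RECLU to cluster them, left out clusters below 0.1 CPM and deposited CPM per gene, and the labels also name bedtools 2.12.0 and edgeR 3.22.5. The summing of clusters to genes is not given in the sources used here. Nothing in the labels says more of replicates than a number, so p-values measure the spread between these mice only.

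The 9 comparisons used limma 3.58.1 (R 4.3.3) on values of log2(CPM + 0.1), fitting all 10 libraries together with 5 group means, a mean-variance trend and Benjamini-Hochberg adjustment over 15851 genes at 0.1 CPM or more in at least 2 libraries. A gene was called when its adjusted p was 0.05 or less. On simulated data for SE 6 h against pre-SE, 200 of 15802 genes were changed. The fit called 135 of 138 genes changed by a logFC of 2 or more in size, with 6 false calls. The simulated mice were given less spread, besides counting error, than the 6 genes showed (standard errors of 0.53 to 0.80 on the log2 scale). That rate therefore does not carry over to the 6 genes. Library totals were inferred from the steps of low CPM values. They served only for depth, that of the simulated libraries included, for the limit of 3 tags, and for the tag numbers of *Ccl3* and *Ccl5* with the counting interval of *Ccl5*.

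The 6 genes and the lists of receptors, transducers and cell type markers were chosen with earlier results of these data known. Text values cover the 6 genes, *Ccr1* and *Ccrl2*, and up to 3 further called list genes per comparison, with *Dock2* repeated where called. Not every listed receptor gene is reported here. The 3 genes with the highest Pearson r were named per gene. Python 3.11.15, numpy 2.4.6, pandas 2.3.3 and Biopython 1.88 were used.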

Additional observations from a re-analysis of the deposited data

Results flagged for a closer look

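The change of *Ccl24* after SE differed between the 2 times. Its logFC at 2 days relative to 6 h was -3.92 (adjusted p = 0.010), tested directly by limma. Under LEV, the change after SE differed between the times for *Ccl6* (3.24, adjusted p = 0.023) and *Ccl9* (2.46, adjusted p = 0.044), also tested directly.

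The LEV mice lay below the SE mice for *Ccl6* at 6 h and above them at 2 days. The difference between these effects was 2.60 (unadjusted p = 0.012) and failed the correction over all genes (adjusted p = 1 by limma). With 2 mice in a group, no test for a mouse far from its group could be made.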

How the results depend on the processing

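Of the 16 calls made for the 6 genes, 4 held under every alternative, those of *Ccl3* and *Ccl4* against pre-SE at 6 h and 2 days in the mice without LEV. No called result changed direction, and of 717 values under alternatives 639 kept direction and side of the threshold. In SE 6 h against pre-SE the number called went from 4 to 3 with a pseudocount of 0.01 (*Ccl24*, adjusted p = 0.16), the replicate block (*Ccl24*, 0.053) and only the groups compared (*Ccl9*, 0.063). In SE 2 days against pre-SE it went from 4 to 3 with a filter of 1 CPM in 2 libraries, which removed *Ccl5*. In SE 2 days against SE 6 h it went from 1 to 2 with pseudocounts of 0.5 and 1 and with the replicate block. In SE + LEV 6 h against pre-SE it went from 1 to 0 with pseudocounts of 0.5 and 1, median-of-ratios rescaling, no mean-variance trend and only the groups compared, and to 2 with the replicate block. In SE + LEV 2 days against pre-SE it went from 4 to 2 with a pseudocount of 1 and to 0 with only the groups compared. In SE + LEV 2 days against SE + LEV 6 h it went from 2 to 1 with a pseudocount of 0.01, median-of-ratios rescaling, the replicate block, no mean-variance trend and only the groups compared. *Ccl6* passed in SE 2 days against pre-SE with median-of-ratios rescaling (adjusted p = 0.049) and without SE 2 days replicate 2 (0.015).

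Over all genes, the number called higher in other fits was 14 to 56 (50 as reported) in SE + LEV 6 h against pre-SE, 0 to 459 (448) in SE + LEV 2 days against pre-SE and 96 to 360 (327) in SE + LEV 2 days against SE + LEV 6 h. Without 1 mouse it was 106 to 184 (437) in SE 6 h against pre-SE, 246 to 603 (803) in SE 2 days against pre-SE and 117 to 146 (498) in SE 2 days against SE 6 h.

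With each mouse left out in turn, the number called ran from 2 to 3 in SE 6 h against pre-SE and in SE 2 days against pre-SE, from 0 to 1 in SE 2 days against SE 6 h and in SE + LEV 2 days against SE + LEV 6 h, from 0 to 4 in SE + LEV 2 days against pre-SE, and was 0 in SE + LEV 6 h against pre-SE. Some uncalled estimates changed sign. In SE 2 days against SE 6 h, leaving out mice gave logFC of -0.902 to 0.095 for *Ccl4*, -0.416 to 1.688 for *Ccl6* and -0.129 to 0.332 for *Ccl9*, and rescaling gave -0.001 for *Ccl9*. In SE + LEV 2 days against SE + LEV 6 h they were -0.899 to 1.064 for *Ccl3* (-0.011 with rescaling) and -0.850 to 1.074 for *Ccl4*. The others were *Ccl5* in SE + LEV 6 h against SE 6 h (-0.403 to 0.795), *Ccl6* and *Ccl9* in SE + LEV 6 h against pre-SE (-0.123 to 0.888 and -0.206 to 1.424), *Ccl24* in SE + LEV 2 days against pre-SE (-0.309 to 1.096) and *Ccl4* in the difference between LEV effects (-0.447 to 1.477). The causes were not tested.

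Same-numbered mice are different animals and share only a number. The correlation of their deviations from group means ran from -0.44 to 0.34, and with 2 pairs the block result is no sign of a weaker or stronger effect. Crossing the numbers in the comparisons of SE + LEV 2 days, an alternative chosen after seeing the data, left 0 genes called against SE 2 days and 4 against pre-SE. The planned count tests were not run: CPM values were rounded to 2 decimals, and in only 3 of 10 libraries did 95% of low values lie within 0.1 tag of a whole number. In a looser check that allowed for the rounding, 100% of values in each of the 10 libraries matched whole tags. *Ccl5* and *Ccl24* near 3 tags are limited by depth.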
